A study of Mus musculus with 12 samples.

Results

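The 6 libraries of 4T1 cells treated with OAP2 or Oxa were compared, as 1 pool, with the 6 libraries treated with APAP or PBS. All 12 libraries of the series entered, 3 in each of the OAP2, Oxa, APAP and PBS groups. The contrast asked which genes shifted on average in the OAP2 and Oxa libraries, with each group keeping its own mean. 4T1 is a mouse mammary carcinoma cell line that grows attached and forms metastatic tumours in mice. The labels give every library as this wild-type line and write OAP2, Oxa and APAP without spelling them out. The PBS libraries carry that name in their titles, a treatment label that reads DMSO, and columns named CON, which were taken to be theirs because no other group lacks a drug. No dose or treatment time is given in the sources used here. The series' design text speaks of a xenograft where the labels speak of cells. Cells from a tumour would also bring host cells, so markers of other cell types are given below. In bulk RNA, fewer cells of a type and less RNA per cell cannot be told apart.

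Growth factor signalling through the MAPK cascade switches on immediate early genes, which encode transcription factors such as EGR1 and the FOS and JUN proteins, together with phosphatases and adaptors of the DUSP, SPRY and SPRED families that turn the cascade down again. MHC class I molecules carry peptides cut by the proteasome to the cell surface, where T cells inspect them, and TAP transporters and tapasin load those peptides in the endoplasmic reticulum. Metallothioneins are small cysteine-rich proteins that bind metal ions, and the transcription factor NRF2 drives genes for detoxification, iron storage and haem breakdown.

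Depth was even, from 64071751 to 71500487 counts per library. All 8 epithelial markers were present, with a mean log2(FPKM + 1) of 7.02 to 7.20 in the OAP2 and Oxa libraries and 6.87 to 7.22 in the APAP and PBS libraries. FPKM is fragments per kilobase of transcript, scaled to the mapped fragments of the library, and so a level set to transcript length. Replicate 2 of the PBS group stood apart. Its 7 red blood cell markers summed to 231.89 FPKM, against at most 0.37 FPKM in any other library, and its 8 neutrophil markers summed to 67.59 FPKM, against at most 0.72. The haemoglobin gene Hbb-bs was at 89.66 FPKM and the neutrophil gene S100a9 at 35.47 FPKM in that library. On the first principal component, which held 26.8% of the variance, it lay at -29.23, within the Oxa range of -33.84 to -23.61. Replicate 3 of the OAP2 group also lay away from its group, at -23.77 on the second component (14.4% of the variance), against 3.85 and 3.35 in the other OAP2 libraries, and at 30.84 on the fourth (9.6%), against -14.18 and -16.79. The summed macrophage markers were at 13.25 to 20.75 FPKM in the OAP2 and Oxa libraries and 12.24 to 46.45 FPKM in the APAP and PBS libraries, with the highest value in PBS replicate 1. Endothelial markers summed to at most 0.06 FPKM in the OAP2 and Oxa libraries and 0.1 in the others, fibroblast markers to at most 1.79 and 2.61, T and NK cell markers to at most 0.73 and 2.09, and B and plasma cell markers to at most 0.12 and 4.63. Their part in the results was not tested, and the counts of calls, over all genes and in the lists, are also given without PBS replicate 2.

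Of 12036 genes tested, 1350 (11.2%) passed a Benjamini-Hochberg adjusted p of 0.05 in the edgeR quasi-likelihood test of OAP2 and Oxa against APAP and PBS, 733 higher (6.09%) and 617 lower (5.13%). The shifts were mostly small. The median size of the log2 fold change among called genes was 0.407, and 19 genes rose and 19 fell by more than 2-fold. In 354 genes (2.94%) all 6 OAP2 and Oxa libraries lay on 1 side of all 6 APAP and PBS libraries, 185 above (1.54%) and 169 below (1.4%), and 313 of these were also called. The other 1037 called genes overlapped between the pools in at least 1 library. Called genes that rose had a median transcript length of 1320.5 bases and a median level of 5.97 FPKM, those that fell 1494.5 bases and 9.49 FPKM, and all tested genes 1171.25 bases and 6.85 FPKM.

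The number of calls depended on single libraries. Without PBS replicate 2 it was 3396, 1815 higher and 1581 lower, which included all 1350, and without OAP2 replicate 3 it was 1692. Without both it was 4252, 2229 higher and 2023 lower. List counts given below for fits without PBS replicate 2 are to be read beside these counts of 12036 genes. The shares of 6.09% and 5.13% belong to the fit with all libraries. Leaving out any 1 of the other 10 libraries gave 690 to 892 calls, the lowest without APAP replicate 3. None of the 28 genes with the largest separated changes, described next, lost its call when any 1 library was left out. These genes were picked from the same libraries for being called and separated, which itself favours keeping the call.

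**Figure D1:**
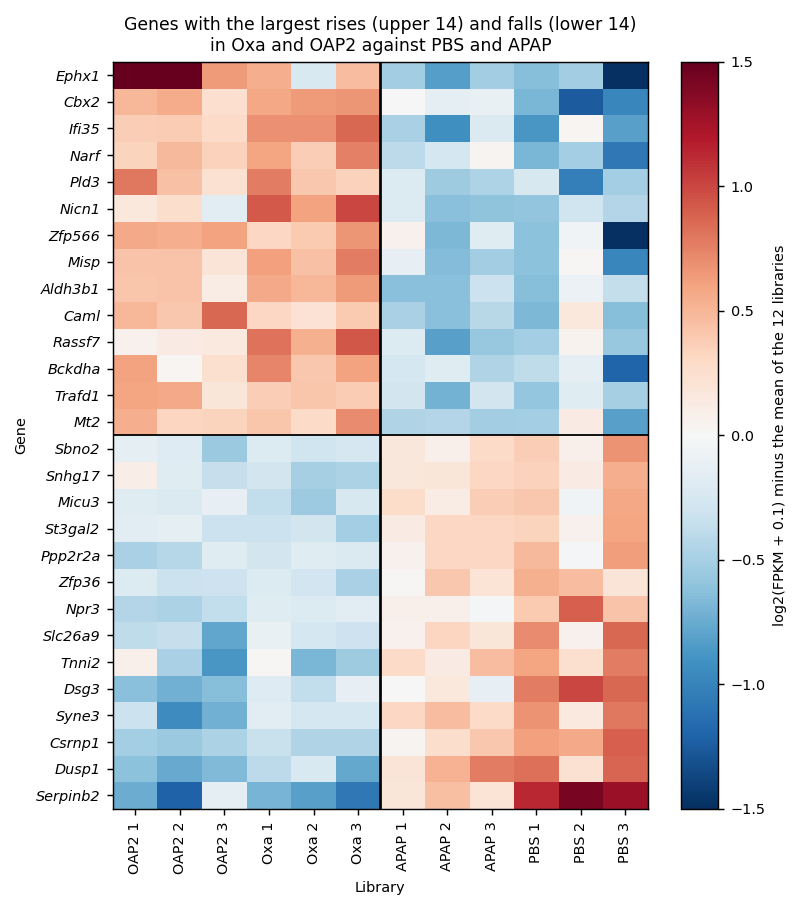
Level of the 14 largest rises and 14 largest falls whose pools do not overlap, in each of the 12 libraries, as log2(FPKM + 0.1) minus the gene's mean over all 12 (colour, limited to 1.5 either way). Columns run OAP2, Oxa, APAP, PBS, and several of the falls, such as Serpinb2, show the APAP libraries between the OAP2 and Oxa libraries and the PBS libraries.

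The largest separated falls included single genes of plasminogen control, growth factor signalling and cell adhesion, among others of varied function. Serpinb2 (chromosome 1, 107511423 to 107532535, GRCm38) encodes plasminogen activator inhibitor 2, which blocks urokinase. It stood at 3.58, 2.57 and 5.53 FPKM in the OAP2 libraries and 3.70, 3.41 and 2.83 FPKM in the Oxa libraries, against 6.94, 8.36 and 7.04 FPKM in the APAP libraries and 13.46, 16.47 and 15.03 FPKM in the PBS libraries. Every OAP2 and Oxa library lay below every APAP library, which lay below every PBS library, and the pooled fold was 2.96-fold lower (log2 fold change -1.56 ± 0.16 SE, edgeR adjusted p = 0.000482). Dusp1 (chromosome 17, 26505590 to 26562128) encodes a nuclear phosphatase that switches off MAP kinases. Its level was 2.13, 1.93 and 2.06 FPKM with OAP2 and 2.52, 2.82 and 1.92 FPKM with Oxa, against 3.82, 4.81 and 5.73 FPKM with APAP and 5.99, 3.93 and 6.19 FPKM with PBS. Here the APAP and PBS libraries overlapped, and the pooled log2 fold change was -1.19 ± 0.15 (SE, edgeR adjusted p = 0.00125).

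Csrnp1 (chromosome 9, 119971163 to 119984658) encodes a nuclear protein induced by AXIN1. It stood at 12.83, 12.38 and 13.09 FPKM with OAP2 and 14.45, 13.33 and 13.33 FPKM with Oxa, against 18.74, 21.97 and 24.26 FPKM with APAP and 27.98, 27.19 and 34.01 FPKM with PBS. The 6 OAP2 and Oxa values lie close together, and the APAP values lie between them and PBS. The log2 fold change was -0.95 ± 0.07 (SE, edgeR adjusted p = 4.6e-05). OAP2 differed from Oxa by -0.10 ± 0.10 on the log2 scale (SE). Dsg3 encodes desmoglein 3, a desmosomal cadherin that holds epithelial cells together. Its level was 4.40, 4.11 and 4.35 FPKM with OAP2 and 5.93, 5.28 and 6.25 FPKM with Oxa, against 6.82, 7.62 and 6.25 FPKM with APAP and 11.71, 13.77 and 12.45 FPKM with PBS. OAP2 was also below Oxa, by 0.43 on the log2 scale (adjusted p = 0.014, edgeR), and the highest Oxa library met the lowest APAP library at the same FPKM, although the pools did not overlap in log2 CPM.

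The other 10 of the 14 falls ranged from -0.92 to -0.56 in log2 fold change. They included Syne3 (-0.92), a nuclear envelope protein that links to the cytoskeleton, Slc26a9 (-0.78), an epithelial anion transporter, Npr3 (-0.65), the clearance receptor for natriuretic peptides, and Zfp36 (-0.64), an RNA-binding protein that speeds decay of cytokine mRNAs. Tnni2 (-0.81) is a troponin subunit of fast skeletal muscle, here at 3.81 to 7.45 FPKM with OAP2 or Oxa and 7.65 to 12.05 FPKM with APAP or PBS. Ppp2r2a (-0.62) encodes a regulatory subunit of protein phosphatase 2A, St3gal2 (-0.60) a sialyltransferase, Micu3 (-0.59) a regulator of mitochondrial calcium uptake, Snhg17 (-0.57) a snoRNA host transcript, and Sbno2 (-0.56) a transcriptional coregulator.

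The largest separated rises included enzymes of detoxification and lipid handling, an interferon-induced gene and a polycomb subunit. Ephx1 (chromosome 1, 180976210 to 181020904) encodes microsomal epoxide hydrolase, which hydrates reactive epoxides. It stood at 4.35, 4.43 and 2.26 FPKM with OAP2 and 2.12, 1.2 and 1.99 FPKM with Oxa, against 0.96, 0.76 and 0.96 FPKM with APAP and 0.88, 0.96 and 0.43 FPKM with PBS. Every OAP2 and Oxa library was above 1 FPKM and every other library below it, a 3.06-fold rise (log2 fold change 1.61 ± 0.25 SE, edgeR adjusted p = 0.0034), at a low level throughout. Cbx2 (chromosome 11, 119022962 to 119031270) encodes a chromodomain protein of polycomb repressive complex 1. It was at 6.46, 6.74 and 5.41 FPKM with OAP2 and 6.83, 7.13 and 7.23 FPKM with Oxa, against 4.51, 4.12 and 4.20 FPKM with APAP and 2.79, 1.86 and 2.25 FPKM with PBS. APAP again lay between PBS and the OAP2 and Oxa libraries, and the pooled fold was 2.09 (log2 fold change 1.06 ± 0.10 SE, edgeR adjusted p = 0.000448).

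Ifi35 (chromosome 11, 101448407 to 101458698), an interferon-induced gene, was at 10.2, 10.2 and 9.59 FPKM with OAP2 and 12.7, 12.6 and 14.3 FPKM with Oxa, against 5.57, 4.07 and 6.73 FPKM with APAP and 4.23, 8.00 and 4.40 FPKM with PBS. Its highest level outside OAP2 and Oxa was in PBS replicate 2, and the log2 fold change was 1.05 ± 0.16 (SE, edgeR adjusted p = 0.0034). Mt2 (chromosome 8, 94172664 to 94173568) encodes metallothionein 2 and was the most abundant of the 14 rises. It stood at 98.83, 84.37 and 85.08 FPKM with OAP2 and 90.20, 82.52 and 110.6 FPKM with Oxa, against 49.26, 49.56 and 46.95 FPKM with APAP and 47.24, 73.73 and 38.36 FPKM with PBS. OAP2 and Oxa overlapped here, with a difference of -0.07 ± 0.19 on the log2 scale (SE), and the pooled log2 fold change was 0.84 (edgeR adjusted p = 0.00365).

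The remaining 10 rises ranged from 1.00 to 0.84 in log2 fold change. Narf (1.00) binds prenylated prelamin A, Pld3 (0.99) is a lysosomal exonuclease, Aldh3b1 (0.89) oxidises lipid-derived aldehydes, Bckdha (0.86) is a subunit of the mitochondrial complex that breaks down branched-chain amino acids, and Trafd1 (0.84) is a feedback regulator of innate immune signalling. Caml (0.87) helps insert tail-anchored proteins into the endoplasmic reticulum, Misp (0.92) positions the mitotic spindle, Zfp566 (0.95) encodes a zinc finger protein, and Nicn1 (0.97) and Rassf7 (0.86) complete the group. Nicn1 and Rassf7 were also lower with OAP2 than with Oxa, by 0.77 and 0.66 on the log2 scale. Nicn1 was at 1.87, 2.01 and 1.48 FPKM with OAP2 and 3.24, 2.57 and 3.42 FPKM with Oxa, against 1.04 to 1.43 FPKM over the APAP and PBS libraries.

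Promoters are shown for 2 rises and 2 falls as examples of separated changes that kept their call whichever library was left out. Dsg3 and Cbx2 had smaller p-values than Narf and Trafd1, and their promoters are not shown. Each is 300 bases of RefSeq sequence on GRCm38.p6, 250 before to 50 after the annotated start, 5′ to 3′ on the gene's strand, with GGGCGG, the SP1 box, in capitals.
Narf, chr11:121236986-121237285, plus strand: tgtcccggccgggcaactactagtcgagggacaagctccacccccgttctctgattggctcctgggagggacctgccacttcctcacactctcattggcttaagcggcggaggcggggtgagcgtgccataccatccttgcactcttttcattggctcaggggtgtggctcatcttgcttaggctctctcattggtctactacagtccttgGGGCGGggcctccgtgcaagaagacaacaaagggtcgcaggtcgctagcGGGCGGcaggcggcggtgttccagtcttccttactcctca
Trafd1, chr5:121385566-121385865, minus strand: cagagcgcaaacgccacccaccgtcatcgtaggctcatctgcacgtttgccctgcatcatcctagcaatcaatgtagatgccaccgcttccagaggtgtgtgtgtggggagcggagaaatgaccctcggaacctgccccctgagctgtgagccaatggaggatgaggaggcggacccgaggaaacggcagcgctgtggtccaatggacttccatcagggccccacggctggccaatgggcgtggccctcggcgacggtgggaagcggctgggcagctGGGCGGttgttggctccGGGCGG
Csrnp1, chr9:119984693-119984992, minus strand: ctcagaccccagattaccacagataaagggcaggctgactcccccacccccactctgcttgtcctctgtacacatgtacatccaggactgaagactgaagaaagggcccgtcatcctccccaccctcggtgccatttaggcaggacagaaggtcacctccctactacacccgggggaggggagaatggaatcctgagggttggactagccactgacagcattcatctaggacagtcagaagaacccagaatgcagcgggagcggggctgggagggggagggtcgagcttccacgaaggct
Serpinb2, chr1:107511173-107511472, plus strand: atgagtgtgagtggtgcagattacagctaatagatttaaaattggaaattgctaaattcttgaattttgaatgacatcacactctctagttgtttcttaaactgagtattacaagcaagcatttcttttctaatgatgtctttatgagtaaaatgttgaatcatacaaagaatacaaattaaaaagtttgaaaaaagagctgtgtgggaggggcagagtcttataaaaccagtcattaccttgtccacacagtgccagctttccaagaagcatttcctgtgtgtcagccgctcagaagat

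Both rising genes held GGGCGG at 2 places in this window, and neither falling gene held any of the 5 motifs searched. Narf and Trafd1 were 60.0% and 64% G and C, and Csrnp1 and Serpinb2 were 58.3% and 35.3%. The motifs were searched on both strands in the same window of 8349 tested genes with an entry, the first entry where a gene had several. Csrnp1 had 4 entries, and Trafd1 and Serpinb2 had 2 each. The Csrnp1 window begins at 119984693, beyond the gene's end at 119984658, so it lies outside the gene span given above. The other entries of these genes were not searched. Each motif was counted on its own, so a window may hold several. GGGCGG occurred in 70.8% of 583 rising and 64.9% of 478 falling genes, against 67.7% of all. TGACGT, part of the cyclic AMP response element, occurred in 9.78% of rising and 16.9% of falling genes, against 13.1% of all. TGACTCA, the AP-1 site bound by FOS and JUN proteins, occurred in 3.26% and 4.39%, against 3.46%. CACGTG, the E-box of MYC and MAX, occurred in 8.92% and 11.9%, against 10.9%, and CCGGAAG, an ETS site, in 16.5% and 22.6%, against 20.9%. These are descriptions of letters in a fixed window and carry no test.

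Of 39 gene lists set beside the background, the MHC class I presentation list had the highest share of rising genes. Of its 18 tested members 9 rose and 0 fell, where 6.09% of all tested genes rose, and the list's median log2 fold change was 0.427, against -0.006 over all genes. Tapbp encodes tapasin, which tethers class I molecules to the peptide transporter. It stood at 14, 13.1 and 6.34 FPKM with OAP2 and 22.9, 24.4 and 20.2 FPKM with Oxa, against 6.80, 6.2 and 5.98 FPKM with APAP and 6.57, 11.4 and 5.45 FPKM with PBS. Oxa lay above OAP2 in all libraries, OAP2 replicate 3 lay within the range of APAP and PBS, and PBS replicate 2 was near the other OAP2 levels, with a pooled log2 fold change of 1.16 ± 0.20 (SE, edgeR adjusted p = 0.00487). The other risers were the proteasome activator Psme1 (0.87), the immunoproteasome subunits Psmb8 (0.78) and Psmb10 (0.37), the transporter Tap2 (0.73), the class I heavy chains H2-Q4 (0.57) and H2-K1 (0.39), the light chain B2m (0.40) and the disulfide isomerase Pdia3 (0.34). B2m averaged 267 ± 29 FPKM in the OAP2 and Oxa libraries and 203 ± 33 FPKM in the APAP and PBS libraries (SD, n = 6 each). The class I heavy chain genes resemble each other closely, so reads may have been divided between them in a way the deposited values do not show. Without PBS replicate 2, the library with neutrophil and red cell markers, 13 members rose and 1 fell.

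The type I interferon list, genes that interferon signalling switches on, also held called rises and no called fall in the pooled contrast. Of 19 tested members 8 rose and 0 fell, where 6.09% of all tested genes rose and 5.13% fell, with a list median of 0.224. OAP2 against APAP called 1 rise and no fall, where 0.274% of all tested genes rose and 0.199% fell. Oxa against PBS called 6 rises and 2 falls, where 5.35% of all tested genes rose and 4.76% fell. Beside Ifi35, Ifi27 (0.62) did not overlap between the pools, and Ddx58 (0.46), which encodes the RNA sensor RIG-I, Eif2ak2 (0.31), which encodes the kinase PKR, Parp14 (0.71) and Ifit2 (0.67) rose with overlap. Isg15, a ubiquitin-like modifier, was at 21.8, 17.4 and 19.0 FPKM with OAP2 and 6.88, 7.62 and 8.26 FPKM with Oxa, against 6.92, 4.82 and 7.23 FPKM with APAP and 6.37, 8.85 and 4.22 FPKM with PBS. Only the OAP2 libraries stand clear of the rest, and the pooled log2 fold change was 0.91 (OAP2 against Oxa 1.36, edgeR adjusted p = 0.00396). Ifit2 ran the other way between the 2 treatments, with OAP2 below Oxa by 1.05 on the log2 scale (edgeR adjusted p = 0.013). Without PBS replicate 2, 9 members rose and 0 fell.

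Detoxification, metal and lysosome genes had called rises and no called fall with all libraries in the fit, where 6.09% of all tested genes rose. In the NRF2 list 4 of 21 rose, Ephx1, the haem oxygenase Hmox1 (0.57), the ferritin light chain Ftl1 (0.33) and the biliverdin reductase Blvrb (0.55). Hmox1 averaged 26.2 ± 3.5 FPKM with OAP2 or Oxa and 17.5 ± 2.4 FPKM with APAP or PBS (SD, n = 6 each), and its pools did not overlap. In the list of metallothioneins and metal transporters 3 of 11 rose, Mt2, Mt1 (0.40) and the organic anion exporter Abcc3 (0.92), and none of the 3 overlapped between the pools. Mt1 averaged 41.3 ± 1.6 FPKM with OAP2 or Oxa and 31.1 ± 1.5 FPKM with APAP or PBS (SD, n = 6 each). In the autophagy and lysosome list 5 of 27 rose, among them the autophagy receptor Sqstm1 (0.34) and Calcoco1 (0.92). In the hypoxia and glycolysis list 5 of 29 rose, led by the carbonic anhydrase Car9 (0.85) and the mitophagy receptor Bnip3 (0.66). Cholesterol synthesis (21 tested), nuclear oxidative phosphorylation (58) and the mRNAs of the mitochondrial genome (13) had 0 called genes in this contrast, where 11.2% of all genes were called. With PBS replicate 2 left out, 7 NRF2 genes rose and 1 fell, 3 metal genes rose and 2 fell, 5 autophagy and lysosome genes rose and 2 fell, and 8 hypoxia genes rose and 0 fell. In that fit 5 cholesterol genes rose and 1 fell, 4 oxidative phosphorylation genes rose and 0 fell, and the mitochondrial mRNAs still had 0 calls.

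**Figure D2:**
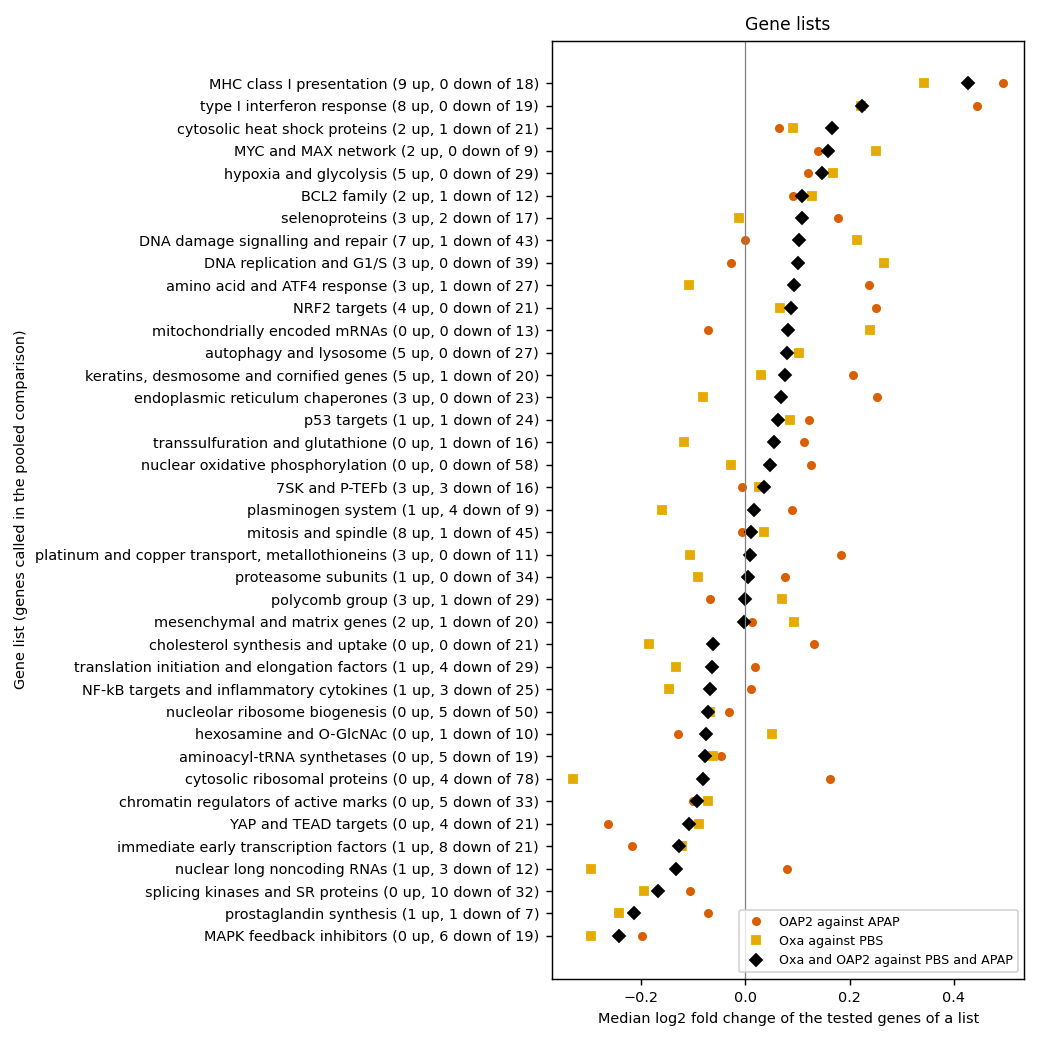
Median log2 fold change of the tested genes of each of 39 lists (horizontal axis) in OAP2 against APAP (circles), Oxa against PBS (squares) and the pooled contrast (diamonds), with the called counts beside each name. MHC class I presentation lies highest, with medians of 0.495, 0.343 and 0.427 in that order, and MAPK feedback inhibitors lie lowest in the pooled contrast at -0.244, while cytosolic ribosomal proteins lie on opposite sides of 0 at 0.163 and -0.331.

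Called changes among genes downstream of growth factor signalling were mostly falls. Of 19 MAPK feedback inhibitors 6 fell and 0 rose, where 5.13% of all tested genes fell, with a list median of -0.244. They were Dusp1, the phosphatases Dusp6 (-0.33) and Dusp8 (-0.57), the adaptors Spry2 (-0.51) and Spred3 (-0.95), which restrain RAS and RAF, and Errfi1 (-0.71), an inhibitor of the EGF receptor. Spry2 averaged 10.2 ± 0.86 FPKM with OAP2 or Oxa and 14.4 ± 1.2 FPKM with APAP or PBS (SD, n = 6 each) without overlap. Of 21 immediate early transcription factor genes 8 fell and 1 rose. Fosl1 (-0.78) and Fosl2 (-0.38) encode FOS-family partners of JUN in AP-1, Jun itself fell by 0.36 on the log2 scale, and Klf6 (-0.45), Btg2 (-0.92), Ier5 (-0.35), Zfp36 and Egr1 complete the falls. Jund, another AP-1 member, rose by 0.38. Fosl1 averaged 54.9 ± 10 FPKM with OAP2 or Oxa and 94.8 ± 24 FPKM with APAP or PBS (SD, n = 6 each). By group it was at 47.98 FPKM with OAP2, 61.77 with Oxa, 75.62 with APAP and 113.9 with PBS. Fosl2 and Ier5 averaged more with Oxa (19.84 and 24.71 FPKM) than with APAP (16.3 and 23.46 FPKM). Fosl1, Zfp36, Btg2 and Egr1 averaged less with Oxa than with APAP. In the fit without PBS replicate 2, 9 feedback inhibitors fell and 2 rose, and 9 immediate early genes fell and 5 rose.

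Targets of other growth-linked factors showed smaller numbers, beside 6.09% rising and 5.13% falling among all tested genes. Of 21 YAP and TEAD targets 4 fell, Ankrd1 (-0.57), Lats2 (-0.33), Amotl2 (-0.26) and Crim1 (-0.43), and 0 rose. Amotl2 averaged 24.22 FPKM with Oxa and 23.92 FPKM with APAP, while Ankrd1, Lats2 and Crim1 averaged less with Oxa than with APAP. Of 25 NF-kB targets and cytokine genes 3 fell and 1 rose. The falls were Tnfaip3 (-0.69), a brake on NF-kB, and the cytokines Csf3 (-0.52) and Lif (-0.56), and the rise was the NF-kB subunit Nfkb2 (0.51). With Oxa, Tnfaip3 averaged 14.97 and Lif 47.0 FPKM, against 14.28 and 40.25 FPKM with APAP and 24.59 and 62.45 FPKM with PBS. Csf3 averaged less with Oxa than with APAP, 14.07 against 15.44 FPKM. In the plasminogen list 4 of 9 fell and 1 rose. Beside Serpinb2, the urokinase gene Plau (-0.49), its receptor Plaur (-0.32) and Serpinf1 (-0.75) fell, and the plasminogen receptor Plgrkt (0.38) rose. For Plau and Plaur the PBS libraries were the high ones. Plau averaged 29.1 ± 2.8 FPKM with OAP2 and 36.7 ± 4.8 FPKM with Oxa, against 31.4 ± 5.6 FPKM with APAP and 66.6 ± 16 FPKM with PBS (SD, n = 3 each). Plaur averaged 36.4 ± 4.4 FPKM with OAP2 and 28.9 ± 1.3 FPKM with Oxa, against 33.5 ± 4.5 FPKM with APAP and 48.4 ± 7.1 FPKM with PBS (SD, n = 3 each). In OAP2 against APAP the log2 fold changes of Plau (-0.14), Plaur (0.09) and Serpinf1 (-0.03) were not called. Among BCL2 family genes the survival factor Mcl1 fell (-0.33, no overlap between pools), and the cell death genes Bcl2l11 (0.46) and Bnip3 rose, 3 of 12 in all. Without PBS replicate 2 the NF-kB list had 4 rises and 3 falls among 25 genes. Over all 12036 genes that fit had 1815 rises and 1581 falls. In that fit 7 YAP and TEAD targets fell and 2 rose, 4 plasminogen genes fell and 3 rose, and 4 BCL2 family genes rose and 2 fell.

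Called changes among splicing factor genes were all falls, and small ones. Of 32 tested members 10 fell and 0 rose, where 5.13% of all tested genes fell. A negative log2 fold change was seen in 26 of the 32, with a list median of -0.169. Hnrnpa1, an abundant splicing repressor, was at 296, 310 and 337 FPKM with OAP2 and 238, 228 and 224 FPKM with Oxa, against 357, 344 and 332 FPKM with APAP and 368, 429 and 342 FPKM with PBS. Oxa lay lowest, 1 OAP2 library overlapped with APAP, and the pooled log2 fold change was -0.44 ± 0.07 (SE, edgeR adjusted p = 0.00447). The SR proteins Srsf1 (-0.32), Srsf3 (-0.25), Srsf10 (-0.20) and Srsf11 (-0.20), the splicing kinase Clk4 (-0.42), and Tra2a (-0.38), Luc7l (-0.46), Luc7l3 (-0.32) and Rbm39 (-0.26) made up the others. Many genes of this kind carry conserved exons that trigger decay of their own mRNA. Without PBS replicate 2, 16 of the 32 fell and 0 rose.

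Genes for making proteins held more called falls than rises with all libraries in the fit, but this depended on the libraries used. Of 78 cytosolic ribosomal protein genes 4 fell and 0 rose, the same share as the 5.13% of all tested genes that fell, with a median of -0.082, made of a median of 0.163 for OAP2 against APAP and -0.331 for Oxa against PBS. The pooled value thus averages opposite medians. Rpl3, the largest faller, averaged 199 ± 49 FPKM with OAP2 or Oxa and 259 ± 22 FPKM with APAP or PBS (SD, n = 6 each). By group it was at 239 FPKM with OAP2, 159 with Oxa, 253 with APAP and 265 with PBS. Its log2 fold change was -0.11 in OAP2 against APAP, which was not called, and -0.73 in Oxa against PBS. Ribosomal protein genes have many processed copies in the genome, which makes their counts less certain. Of 19 cytosolic aminoacyl-tRNA synthetases 5 fell, Eprs, Lars, Rars, Tars and Vars, by 0.24 to 0.34 on the log2 scale, and of 50 nucleolar genes of ribosome assembly 5 fell, with Polr1b (-0.34), a subunit of RNA polymerase I, not overlapping between the pools. Among translation factors 4 of 29 fell, including the cap-binding protein Eif4e (-0.31), and Pdcd4 (0.73), an inhibitor of the helicase eIF4A, rose. On the log2 scale Pdcd4 was 0.12 in OAP2 against APAP, which was not called, and 1.33 in Oxa against PBS. In the ATF4 list 3 of 27 rose and 1 fell, where 6.09% of all tested genes rose and 5.13% fell. Ddit3, which encodes the stress factor CHOP, averaged 48.9 ± 5.4 FPKM with OAP2 or Oxa and 33.2 ± 2.6 FPKM with APAP or PBS (SD, n = 6 each), without overlap, while asparagine synthetase Asns (-0.29) fell. Asns averaged 232.7 FPKM with OAP2 and 159.4 FPKM with Oxa, against 237.3 FPKM with APAP and 231.0 FPKM with PBS. Beside the same share of 6.09%, 3 of 23 endoplasmic reticulum chaperone genes rose, Pdia3, Pdia6 (0.26) and Dnajb9 (0.68). The median of that list was 0.253 for OAP2 against APAP, where none of its genes was called, and -0.081 for Oxa against PBS. In Oxa against PBS 2 of its genes fell and 0 rose, beside 4.76% and 5.35% of all tested genes. In OAP2 against Oxa 7 of its genes were higher with OAP2 and 0 lower, beside 6.02% and 6.91% of all tested genes. With PBS replicate 2 left out, 1815 of all 12036 tested genes rose and 1581 fell. Beside these counts, 9 of the 50 nucleolar genes rose and 7 fell. Of the other lists, 4 ribosomal protein genes, 6 synthetases and 5 translation factors fell, against 0, 1 and 1 that rose. In that fit 12 ATF4 genes rose and 3 fell, and 4 chaperone genes rose and 0 fell. Without OAP2 replicate 3 as well, 39 ribosomal protein genes fell and 0 rose, and 10 nucleolar genes rose and 15 fell. Over all genes that last fit had 2229 rises and 2023 falls.

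Cell cycle and DNA repair genes held more called rises than falls with all libraries in the fit, all of modest size. Of 45 mitosis genes 8 rose and 1 fell, of 43 DNA damage and repair genes 7 rose and 1 fell, and of 39 replication genes 3 rose, a share near the 6.09% of all tested genes that rose. For Oxa against PBS the medians were 0.036 in mitosis, 0.215 in repair and 0.267 in replication. For OAP2 against APAP they were -0.007, 0.0 and -0.028, with 0 genes called. Lower with OAP2 than with Oxa were 21 replication genes (0 higher), 9 repair genes (2 higher) and 5 mitosis genes (0 higher). Over all tested genes 6.91% were lower and 6.02% higher in that comparison. Cenpf (0.46), a kinetochore protein, Kif20b (0.29), a motor of cytokinesis, and Ndc80 (0.33) rose in mitosis, and Brca1 (0.49), the repair scaffold Xrcc1 (0.35) and Parp1 (0.32) rose in repair, while the DNA ligase gene Lig3 (-0.47) fell without overlap. Xrcc1 averaged 5.80 FPKM with OAP2 and 8.71 FPKM with Oxa, against 5.42 FPKM with APAP and 5.68 FPKM with PBS. Among 24 p53 targets 1 rose, the death receptor Tnfrsf10b (0.37), and 1 fell, Btg2, which also belongs to the immediate early list. In the fit without PBS replicate 2, 14 of the 43 repair genes rose and 3 fell, 17 replication genes rose and 0 fell, 11 mitosis genes rose and 6 fell, and 6 p53 targets rose and 1 fell. Without OAP2 replicate 3 as well, 11 mitosis genes rose and 11 fell.

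Chromatin and transcription genes moved in both directions, beside 6.09% rising and 5.13% falling among all tested genes. Of 29 polycomb genes 3 rose, among them Cbx2 and Phc1 (0.36) of repressive complex 1, and Eed (-0.27) of repressive complex 2 fell. Phc1 averaged 3.04 FPKM with OAP2 and 4.96 FPKM with Oxa, against 2.98 FPKM with APAP and 3.02 FPKM with PBS. Of 33 regulators of active chromatin marks 5 fell and 0 rose, among them the H3K4 demethylases Kdm5a (-0.26), Kdm5b (-0.43) and Kdm5c (-0.42). Mnt (0.81) and Mxi1 (0.40), which compete with MYC for MAX, rose among 9 genes of the MYC and MAX network. Of 16 genes around the elongation factor P-TEFb 3 rose and 3 fell. The RNA Rn7sk, which holds P-TEFb inactive, rose by 1.23 and its capping enzyme gene Mepce by 0.39, while the kinase gene Cdk9 fell by 0.31 and its cyclin gene Ccnt1 by 0.21 on the log2 scale. Rn7sk varied widely, at 8.36, 22.7 and 9.06 FPKM with OAP2 and 18.6, 23.4 and 13.8 FPKM with Oxa, against 6.43, 8.67 and 7.02 FPKM with APAP and 7.33, 3.10 and 7.88 FPKM with PBS. It lacks a poly(A) tail, so its level in poly(A)-selected libraries says little about the amount in the cell. Without PBS replicate 2, 4 polycomb genes rose and 3 fell, 3 regulators of active marks rose and 12 fell, 4 MYC and MAX network genes rose and 1 fell, and 4 P-TEFb genes rose and 4 fell.

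Epithelial and matrix genes were mixed. Counts of this and the following lists stand beside 6.09% rising and 5.13% falling among all tested genes, and several are near those shares. Of 20 keratin, desmosome and cornified-layer genes 5 rose, the keratin Krt19 (0.44), the desmosomal plaque genes Jup (0.32), Pkp2 (0.30) and Ppl (0.49), and the cross-linking enzyme Tgm1 (1.16), and Dsg3 fell. Of 20 mesenchymal and matrix genes 2 rose and 1 fell. Vimentin (Vim) was at 60.4, 61.4 and 53.1 FPKM with OAP2 and 113, 114 and 111 FPKM with Oxa, against 41.1, 39.8 and 37.5 FPKM with APAP and 50.2, 72.9 and 44.7 FPKM with PBS, and only PBS replicate 2 overlapped with the OAP2 and Oxa libraries. Lamb3 (0.57) rose, and fibronectin Fn1 fell to 224 ± 42 FPKM with OAP2 or Oxa, against 317 ± 31 FPKM with APAP or PBS (SD, n = 6 each), without overlap. In the heat shock list 2 of 21 rose, Bag3 (0.57) and Hsf1 (0.29), and Hspb8 (-0.32) fell. Of 17 selenoprotein genes 3 rose and 2 fell, of 34 proteasome genes 1 rose, of 12 nuclear long noncoding RNAs 1 rose and 3 snoRNA host transcripts fell, and of 7 prostaglandin genes 1 rose and 1 fell. In the fit without PBS replicate 2, 8 keratin and desmosome genes rose and 2 fell, 3 mesenchymal genes rose and 1 fell, and 11 heat shock genes rose and 3 fell. In that fit 5 selenoprotein genes rose and 3 fell, 3 proteasome genes rose and 1 fell, 1 noncoding RNA rose and 4 fell, and 1 prostaglandin gene rose and 3 fell.

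The calls of the list members were of unequal strength. Of 161 called members, 82 kept their call in every fit that left out 1 library, 42 lost it in 1 to 8 of the 12 fits, and 37 lost it in 9 or more. Among the genes named above, this last set held Psmb10, Eif2ak2, Blvrb, Jun, Crim1, Plaur, Plgrkt, Tars, Rars, Eif4e, Pdia6, Srsf10, Srsf11, Tnfrsf10b, Eed, Kdm5b, Hspb8 and Bag3.

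The pooled contrast is the mean of OAP2 against APAP and Oxa against PBS, which share no library. OAP2 against APAP called 57 genes (0.474%), 33 higher (0.274%) and 24 lower (0.199%), and Oxa against PBS called 1217 (10.1%), 644 higher (5.35%) and 573 lower (4.76%). At an unadjusted p under 0.05 OAP2 against APAP had 1835 genes, and DESeq2 called 506. The edgeR count was 0 to 24 without any 1 of the APAP or Oxa libraries or OAP2 replicate 1 or 2, 125 without OAP2 replicate 3, and 916 without PBS replicate 2. The count for Oxa against PBS was 477 to 585 without any 1 Oxa library, 664 and 736 without PBS replicate 3 or 1, and 3066 without PBS replicate 2. Called in both were 17 genes, 29.8% of the OAP2 calls and 1.4% of the Oxa calls, and 16 of them had the same direction, 7 higher and 9 lower. Of the 57 OAP2 calls 42 (73.7%) had the same sign in Oxa against PBS, and of the 1217 Oxa calls 920 (75.6%) had the same sign in OAP2 against APAP, while 60.0% of all tested genes had. The Oxa calls had a median log2 fold change, in their own direction, of 0.152 in OAP2 against APAP and 0.585 in Oxa against PBS. Across the 12036 genes the log2 fold changes of the 2 comparisons had a Pearson r of 0.252, a description only, since genes are not independent and the groups share the scaling and the estimate of spread. Of the 1350 pooled calls 1305 moved the same way in both comparisons, a share that the pooled call itself favours, with a median size of 0.321 for OAP2 against APAP and 0.507 for Oxa against PBS.

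**Figure D3:**
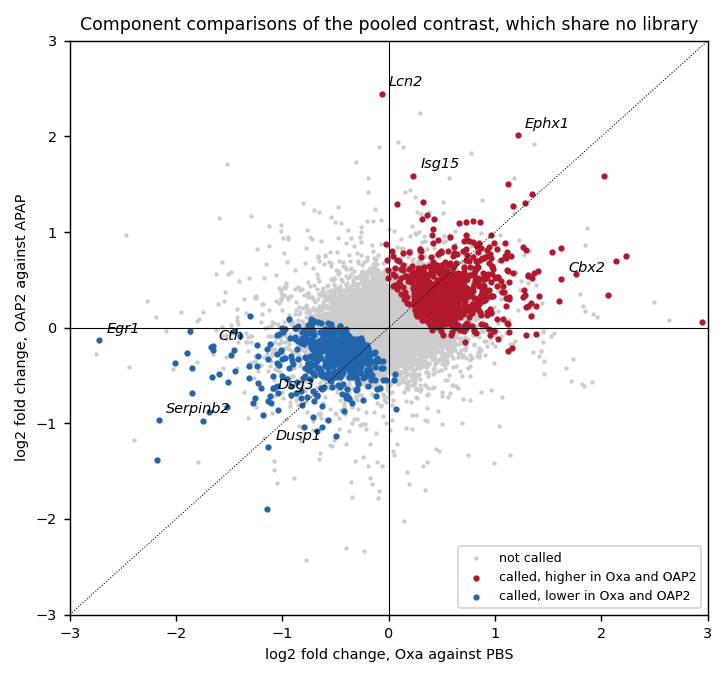
Log2 fold change of each tested gene in OAP2 against APAP (vertical axis) and in Oxa against PBS (horizontal axis), which share no library, with genes called in the pooled contrast in colour. Most genes lie near 0 on both axes (Pearson r = 0.252 over 12036 genes), and 12 genes fall outside the plotted range.

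Named genes differed in how the 2 comparisons built their pooled value. Dusp1 was -1.25 in OAP2 against APAP and -1.14 in Oxa against PBS, Spry2 -0.51 in each, Mt2 0.85 and 0.83, and Lig3 -0.48 and -0.46, on the log2 scale. Ephx1 was 2.01 in OAP2 against APAP and 1.21 in Oxa against PBS, and B2m 0.66 and 0.14. Of the 14 largest separated falls 11, and of the 14 rises 10, were wider in Oxa against PBS, which was not tested. Serpinb2 was -0.96 in OAP2 against APAP and -2.17 in Oxa against PBS, and Cbx2, among the rises, was 0.51 and 1.62. For Cbx2 the difference between the 2 comparisons passed the interaction test (-1.11, edgeR adjusted p = 0.0419), with APAP at a higher level than PBS and the OAP2 libraries slightly below the Oxa libraries (-0.18 ± 0.15 on the log2 scale, SE, not called). That interaction test called 66 genes (0.548%), 39 positive (0.324%) and 27 negative (0.224%), and 29 of them were also called in the pooled contrast. It called 0 genes when any 1 APAP library, any 1 Oxa library or OAP2 replicate 1 or 2 was left out (edgeR, 1302 to 1987 with an unadjusted p under 0.05), 4 without PBS replicate 1, and 606 without PBS replicate 2. With all libraries 1798 genes had an unadjusted p under 0.05 in it, and DESeq2 called 505.

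OAP2 against Oxa called 1557 genes (12.9%), 725 higher with OAP2 (6.02%) and 832 lower (6.91%). Of the 1350 pooled calls 355 (26.3%) were among them, which is 22.8% of the OAP2 against Oxa calls. In 149 of these the gene rose in the pool and was lower with OAP2 than with Oxa, and in 136 it fell in the pool and was higher with OAP2. In both of these sets Oxa lay further from the APAP and PBS pool than OAP2, while in 21 rises and 49 falls OAP2 lay further. For the remaining pooled calls a difference between OAP2 and Oxa was not called, which does not show that the treatments acted alike. The count for OAP2 against Oxa was 688 to 891 without any 1 Oxa library, 875 without OAP2 replicate 1, and 2743 without PBS replicate 2.

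The pooled calls with the widest OAP2 to Oxa differences rested on 1 treatment each. Lcn2, which encodes lipocalin 2, an iron-siderophore binding protein, was at 22.3, 19.2 and 10.7 FPKM with OAP2 and 2.27, 1.71 and 3.28 FPKM with Oxa, against 3.19, 2.43 and 3.76 FPKM with APAP and 2.45, 4.12 and 1.00 FPKM with PBS. Oxa lay within the range of APAP and PBS, and the pooled log2 fold change of 1.19 lost its call in 4 of 12 fits that left out 1 library. The other 3 genes with the highest OAP2 over Oxa had their fall with Oxa. Gnpnat1, an enzyme of the hexosamine pathway and the only called gene of 10 in that list, was at 21.9, 19.0 and 15.9 FPKM with OAP2 and 4.61, 5.93 and 6.02 FPKM with Oxa, against 16.6 to 23.8 FPKM with APAP and 12.3 to 25.4 FPKM with PBS. Without PBS replicate 2, 1 gene of the hexosamine list rose and 1 fell. Selenoo, a mitochondrial selenoprotein that transfers AMP to proteins, was at 2.90, 2.45 and 3.03 FPKM with OAP2 and 1.01, 0.79 and 0.94 FPKM with Oxa, against 3.43 to 3.90 FPKM with APAP and 2.26 to 4.21 FPKM with PBS. Egr1 was at 5.91, 5.97 and 3.92 FPKM with OAP2 and 1.47, 1.23 and 1.15 FPKM with Oxa, against 4.62, 6.42 and 5.88 FPKM with APAP and 4.29, 17.7 and 3.68 FPKM with PBS, and the highest value is PBS replicate 2.

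**Figure D4:**
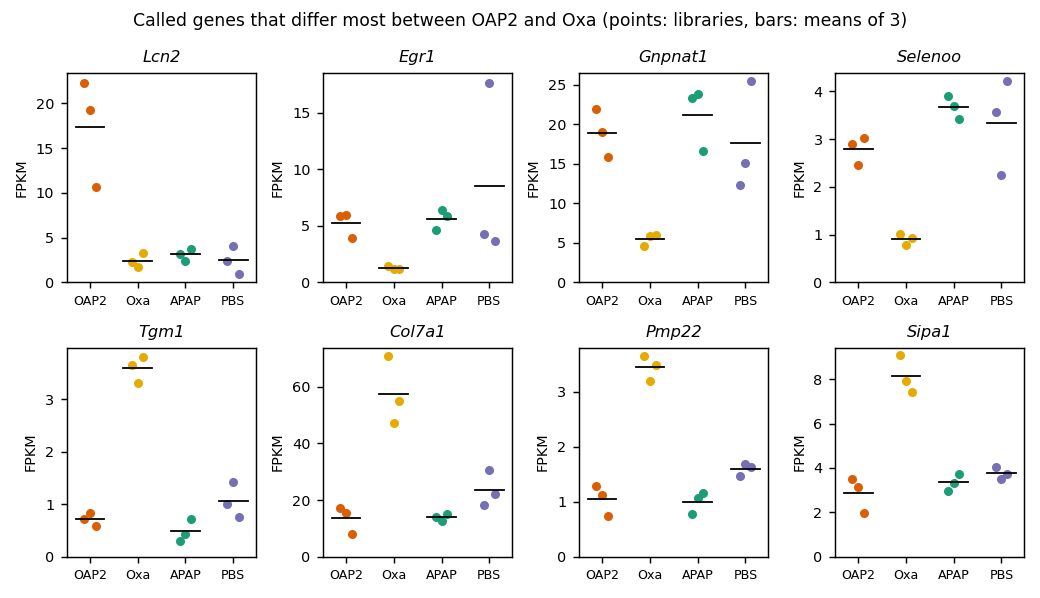
FPKM (linear axis from 0) of the 8 pooled calls that differ most between OAP2 and Oxa, with 1 point per library and a bar at each group's mean, from left to right OAP2, Oxa, APAP and PBS. In the upper row OAP2 lies above Oxa (Lcn2, Egr1, Gnpnat1, Selenoo), and in the lower row Oxa lies above all other groups (Tgm1, Col7a1, Pmp22, Sipa1).

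In the opposite direction, 4 genes were high with Oxa alone. Tgm1, which cross-links proteins in stratified epithelium, was at 0.72, 0.84 and 0.59 FPKM with OAP2 and 3.66, 3.31 and 3.81 FPKM with Oxa, against 0.30 to 0.72 FPKM with APAP and 0.76 to 1.42 FPKM with PBS. Col7a1, the collagen of anchoring fibrils, was at 17.1, 15.4 and 8.03 FPKM with OAP2 and 70.7, 47.0 and 55.0 FPKM with Oxa, against 12.7 to 15.2 FPKM with APAP and 18.1 to 30.7 FPKM with PBS. The OAP2 libraries of both genes lay within or below the range of the APAP and PBS libraries, while the pooled log2 fold change was 1.16 for Tgm1 and 0.61 for Col7a1. Pmp22, a membrane protein of myelin and epithelia, and Sipa1, a GTPase activator for RAP1, showed the same order, with Oxa at 3.20 to 3.66 and 7.42 to 9.07 FPKM and OAP2 at 0.74 to 1.28 and 1.98 to 3.50 FPKM. The pooled calls of Col7a1, Pmp22 and Sipa1 were each lost in 10 of 12 fits that left out 1 library. Cth, which makes cysteine by transsulfuration, fell with Oxa, at 18.3, 17.4 and 26.3 FPKM with OAP2 and 8.89, 8.61 and 10.1 FPKM with Oxa, against 21.9 to 25.1 FPKM with APAP and 26.1 to 35.0 FPKM with PBS. Its difference between OAP2 and Oxa was 1.17 on the log2 scale (edgeR adjusted p = 0.00061), and it was the only called gene of 16 in the transsulfuration and glutathione list. Without PBS replicate 2, 2 genes of that list rose and 1 fell.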

How the data were processed

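Poly(A) RNA was taken from Trizol extracts of 4T1 cells and made into dUTP strand-marked libraries for paired-end sequencing, per the labels' protocols. The submitters' processing notes give, with no role for any, StringTie 2.1.6, HISAT2 2.2.1 and cutadapt 1.9, and the packages edgeR and DESeq2. The authors deposited estimated counts (expected counts, whole numbers not scaled between libraries) and FPKM (the authors' scaling for transcript length and mapped fragments) for 29937 genes, per the file headers. The strand setting and the rule for multi-mapping reads were not given in the sources used here, so overlapping or antisense genes and close paralogs are less certain. The notes list build mm9, but 91.1% of 29864 genes matched to GENCODE M21 have GRCm38 positions, so positions are given in GRCm38.

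The test was run on the 12036 genes that reached FPKM 1 in 3 or more libraries, whose mean counts start at 3.17. Counts, whole as deposited and so needing no rounding, were given TMM factors, and a quasi-likelihood model with 4 group means was fitted with edgeR 4.0.16 under R 4.3.3. The pooled contrast is the mean of OAP2 and Oxa minus the mean of APAP and PBS. Oxa against PBS, OAP2 against APAP, OAP2 against Oxa and the interaction came from the same fit. Calls required an adjusted p (Benjamini-Hochberg) under 0.05 in the 2-sided test. Standard errors are the fold change over the square root of F, an approximation. A prior count of 2 was used for log2 CPM. Because the labels do not say that replicates were separate cultures, p-values cover only library-to-library spread, which may be technical. The common biological coefficient of variation was 18.1%.

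Genes were named by rule: the 14 largest rises and falls among called genes whose pools do not overlap, averaging 2 FPKM or more in the higher pool, up to 4 called members of each list with the largest F, and the 4 called genes furthest in each direction between OAP2 and Oxa. Other called list members are named as well. A few called genes are left out of the text. The contrast, lists and tests were chosen with earlier results of these data known. Tested on simulated data, the pooled contrast found 50 of 67 true 1.5-fold, 59 of 67 2-fold and 65 of 66 4-fold changes. It made 10 calls among 11836 unchanged genes. Those data left all 12036 genes unchanged between OAP2 and Oxa, where the deposited libraries gave 1557 calls. Recovery with a library that stands apart, such as PBS replicate 2 or OAP2 replicate 3, was not tested. Alternatives were other scalings, filters, DESeq2 1.42.0, limma 3.58.1 on log2(FPKM + 1) and log2(FPKM + 0.1), voom with sample weights, removal of a length trend, a replicate block, a fit with 2 means, a 1.2-fold threshold and leaving out libraries.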

Additional observations from a re-analysis of the deposited data

Results flagged for a closer look

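Among the genes named by rule, 41 differed between OAP2 and Oxa by the edgeR test of that difference, given here as OAP2 minus Oxa on the log2 scale. In 17 genes that rose in the pool OAP2 lay below Oxa. Among them were Tgm1 (-2.31), Col7a1 (-2.08), Pmp22 (-1.71), Sipa1 (-1.49), Tapbp (-1.01), Vim (-0.95), Nicn1 (-0.77), Phc1 (-0.70), Rassf7 (-0.66), Rfc3 (-0.61), Mcm2 (-0.61), Xrcc1 (-0.58), Cdc25b (-0.57), Ddx58 (-0.49), Hsf1 (-0.42) and Pkp2 (-0.30). In 14 genes that fell in the pool OAP2 lay above Oxa. They were Egr1 (2.04), Gnpnat1 (1.78), Selenoo (1.61), Serpinf1 (1.27), Cth (1.17), Snhg12 (0.87), Rpl3 (0.59), Hspb8 (0.56), Asns (0.55), Taf1d (0.53), Hnrnpa1 (0.45), Eprs (0.39), Kdm5a (0.34) and Srsf1 (0.32). In both sets Oxa lay further from the APAP and PBS pool than OAP2.

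In 8 genes that fell OAP2 lay further down than Oxa, and these included several downstream of growth factor and inflammatory signals. They were Fosl2 (-0.90), Lif (-0.90), Tnfaip3 (-0.70), Dusp8 (-0.62), Dsg3 (-0.43), Ier5 (-0.43), Lats2 (-0.43) and Amotl2 (-0.30). In 2 genes that rose, Lcn2 (2.85) and Isg15 (1.36), OAP2 lay further up.

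The difference between OAP2 against APAP and Oxa against PBS passed the interaction test in 6 named genes. It was positive for Cth (1.47), Serpinf1 (1.43) and Selenoo (1.43), and negative for Sipa1 (-1.37), Mnt (-1.15) and Cbx2 (-1.11). The interaction test made 0 calls when any 1 of 8 of the libraries was left out, so none of these 6 was called in those fits.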

How the results depend on the processing

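The pooled count of 1350 stayed within 1.5 times under RLE and upper quartile scaling, an FPKM minimum of 5, limma with either pseudocount, removal of the length trend and the replicate block, and the median over all genes shifted by 0.0022 with RLE and -0.0024 with upper quartile scaling on the log2 scale. Without the FPKM filter the counts were 679 for the pooled contrast, 701 for Oxa against PBS, 4 for OAP2 against APAP, 1026 for OAP2 against Oxa and 0 for the interaction (edgeR, 2645 with an unadjusted p under 0.05). DESeq2 called 2057 in the pooled contrast, 2020 for Oxa against PBS, 506 for OAP2 against APAP and 505 for the interaction. Voom with sample quality weights called 4393, 4394, 1567, 3474 and 1317 in the order pooled, Oxa against PBS, OAP2 against APAP, OAP2 against Oxa and interaction. Leaving out both PBS replicate 2 and OAP2 replicate 3 called 4252, 4258, 1438, 3426 and 1248 in the same order. A fit with 2 means called 545 pooled genes, and a test against 1.2-fold called 74. For the interaction, limma called 25 on log2(FPKM + 1) and 2 on log2(FPKM + 0.1). Leaving out each library in turn gave 690 to 3396 pooled calls, 477 to 3066 for Oxa against PBS, 0 to 916 for OAP2 against APAP, 688 to 2743 for OAP2 against Oxa and 0 to 606 for the interaction, with the highest values all without PBS replicate 2. Without APAP replicate 2, where OAP2 against APAP had 0 calls, 1443 genes had an unadjusted p under 0.05. Beyond the loss of samples or genes, the cause of these changes was not tested. Of 3703 values of the 149 named genes under alternatives, 3078 kept their side of the threshold, 594 lost their call, 31 gained one and 0 changed sign.

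Deviations from the group means correlated by -0.152 to 0.155 in the 18 pairs of libraries with equal replicate numbers. This cannot exclude a pairing, because PBS replicate 2 and OAP2 replicate 3 dominate the deviations of their small groups. The labels do not say whether libraries with equal numbers belong together. With the replicate block the counts were 1185 pooled, 1097 for Oxa against PBS, 30 for OAP2 against APAP, 1421 for OAP2 against Oxa and 0 for the interaction (1760 with an unadjusted p under 0.05). Depth was even and limits mainly genes near the filter, the lowest of which had a mean count of 3.17.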
